A study of Mus musculus with 12 samples.

Results

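The pore of a voltage-gated calcium channel is formed by 1 alpha1 subunit, and the 8 alpha1 genes Cacna1a, Cacna1b, Cacna1c, Cacna1d, Cacna1e, Cacna1g, Cacna1h and Cacna1i were examined here among 24490 genes measured in mouse dorsal root ganglia (DRG), which hold the cell bodies of sensory neurons. The members were taken by gene symbol and not by their values. RNA came from adult male C57Bl/6 mice and was measured in 4 intact, 4 dissociated, unsorted and 4 MACS-sorted samples, the last of which had passed a magnetic column that retains cells bound by antibodies to non-neuronal cells. An intact sample was the ganglia of 1 mouse, an unsorted sample pooled 2 mice and a MACS-sorted sample pooled 8 mice, so that preparation and number of animals cannot be told apart. All mice were of this strain, and both dissociated groups had been exposed to the same enzymes. Expression is given as FPKM, mapped fragments scaled to the length of the transcript and to all mapped fragments of the sample, which corrects for transcript length and was used to compare genes with each other.

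The alpha1 genes fall into 3 families. The CaV1 channels (Cacna1c and Cacna1d) carry the long-lasting L-type current that couples depolarisation to signalling and transcription. The CaV2 channels (Cacna1a, P/Q-type, Cacna1b, N-type, and Cacna1e, R-type) open calcium entry at nerve terminals and trigger transmitter release, and the N-type channel at the spinal terminals of nociceptors is the target of the analgesic ziconotide. The CaV3 channels (Cacna1g, Cacna1h and Cacna1i) carry T-type current, which opens near the resting potential and sets how readily a neuron fires. In DRG the T-type channel CaV3.2 is known from nociceptors and from mechanoreceptors of low threshold.

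The samples held an estimated 13500000 to 19300000 fragments, between 13500000 and 17200000 in the MACS-sorted group. Intact replicate 1 stood apart from the other intact samples. The median squared difference of pairs that include it was 48.68 to 58.48 times that of counting noise, against 3.16 to 4.30 times for the other intact pairs. Between MACS-sorted and unsorted samples, all 8 markers of large-diameter neurons, all 7 of satellite glia, 6 of 7 of Schwann cells, 5 of 6 of fibroblasts, all 3 of macrophages and all 4 of neutrophils tested fell, whereas 8 of 10 nociceptor markers rose and 1 fell. All 9 red blood cell genes tested rose and took between 0.706% and 7.29% of the summed FPKM of a MACS-sorted sample. Of 8 pan-neuronal markers, 4 rose and 2 fell, of 5 smooth muscle and pericyte markers 4 fell and Rgs5 rose, and 0 of 6 endothelial markers passed in limma (adjusted p under 0.05). Skeletal muscle markers were too low to be tested there. The part of these other cells in the results for the alpha1 genes was not tested unless a value is given.

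Cacna1b was the most abundant alpha1 transcript in each group, at 17.4 ± 3.27 FPKM in intact DRG, 17.9 ± 0.910 in unsorted cells and 25.9 ± 3.69 after sorting (mean ± SD, n = 4 in each group). Cacna1a, the second, was at 11.6 ± 2.93, 15.4 ± 1.71 and 13.1 ± 0.685 FPKM (SD, n = 4), and its range overlapped that of Cacna1b in the intact and unsorted groups. Cacna1c at 7.66 and Cacna1h at 6.98 FPKM in intact DRG came next, and their ranges overlapped in each of the groups. In intact and unsorted samples Cacna1i, Cacna1e and Cacna1d formed a lower tier with overlapping ranges and means between 1.12 and 1.77 FPKM. Cacna1g was the lowest of the members in each group, with a mean of at most 0.507 FPKM. In the MACS-sorted samples Cacna1b stood clear of Cacna1a, and Cacna1i was no longer in the lower tier. Cacna1i stood at 7.23 ± 2.36 FPKM (SD, n = 4), overlapping Cacna1h at 9.29 ± 2.46, and all its values lay above those of Cacna1e and Cacna1d. Relative to all genes detected in a group, the mean of Cacna1i was at percentile 36 among 17299 genes in unsorted samples and at percentile 59.5 among 16413 genes in MACS-sorted samples, while Cacna1b was at percentile 78.8 and 84.7.

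**Figure D1:**
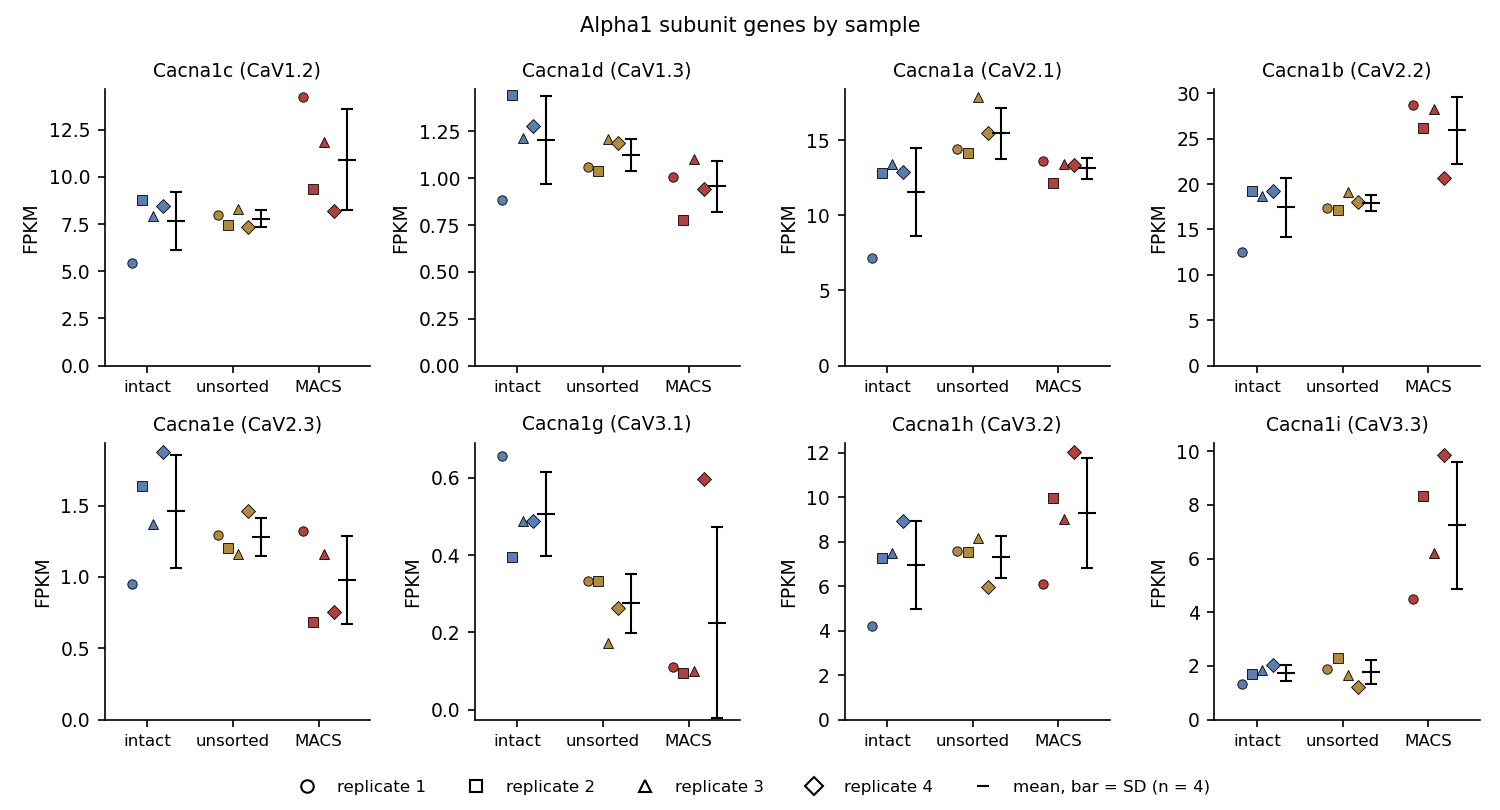
Expression of the 8 alpha1 genes in FPKM (y axis, linear, a separate scale for each gene) in the intact, unsorted and MACS-sorted samples, with 1 symbol per replicate and the mean with its SD (n = 4) beside them. The MACS-sorted values of Cacna1i, from 4.51 to 9.87 FPKM, lie above the other 8 samples, and intact replicate 1 is the lowest intact sample for 7 of the 8 genes.

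The first comparison asked how MACS-sorted preparations differ from unsorted ones. The labels do not say whether both groups came from separate mice. Cacna1i was 4.10-fold higher in MACS-sorted samples and Cacna1b 1.45-fold higher, and both were called as changed. The 7 members whose mean over the 8 samples reached 1 FPKM were tested, and 3 of them passed the adjusted p-value of 0.05 in the higher direction (Cacna1i, Cacna1b and Cacna1c) and 0 in the lower, where 18.8% of the 12038 genes tested passed higher and 27.7% lower. A call also asked that the group means differ by over 0.5 on the log2 scale and that the higher of them exceed 5 FPKM. It was met by 2 members, both higher, beside 8.15% of genes called higher and 12.5% called lower, and the same 2 members had MACS-sorted values all above the unsorted ones, beside 18.4% of genes. The median log2-fold change was 0.31 over the 7 members and -0.04 over all genes tested. In RNA from whole preparations, fewer cells of a type and less RNA per cell cannot be told apart. Here and below, log2-fold changes are differences between mean log2(FPKM + 0.1) values, tested two-sided with limma and Benjamini-Hochberg adjustment over all genes tested, and the changes of low genes are understated on this scale.

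Cacna1i and Cacna1b are the members called in that comparison, and the 250 bases before their start sites were, 5′ to 3′ in the direction of the gene, from RefSeq on GRCm38.p6, with each GC box (GGGCGG on either strand, the motif bound by Sp1 family factors) in capitals. Cacna1b lies on the minus strand of chromosome 2 (24603889 to 24763152 in mm10) and its window is chr2:24763153-24763402. Cacna1i lies on the plus strand of chromosome 15 (80287238 to 80398292) and its window is chr15:80286988-80287237.
Cacna1b: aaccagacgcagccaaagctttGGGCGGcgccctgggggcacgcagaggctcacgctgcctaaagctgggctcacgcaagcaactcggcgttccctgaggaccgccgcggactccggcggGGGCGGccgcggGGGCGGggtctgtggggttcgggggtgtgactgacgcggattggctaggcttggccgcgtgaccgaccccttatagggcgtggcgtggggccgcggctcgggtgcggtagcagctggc
Cacna1i: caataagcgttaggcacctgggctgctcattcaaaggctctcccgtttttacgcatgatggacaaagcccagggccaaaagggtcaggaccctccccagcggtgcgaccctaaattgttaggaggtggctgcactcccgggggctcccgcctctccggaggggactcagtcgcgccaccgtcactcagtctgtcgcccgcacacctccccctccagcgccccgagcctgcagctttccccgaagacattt
The Cacna1b window held 3 GC boxes, 72.0% G and C and 29 CpG dinucleotides. The Cacna1i window held 0 GC boxes, 62.4% G and C and 16 CpG. Among 32851 mouse promoter windows of this length 32.7% held a GC box, and the medians were 52.4% G and C and 6 CpG. Promoter windows were found for 5 of the 8 members. Cacna1e, with 1 window, had 0 GC boxes and 52.0% G and C, the 3 windows of Cacna1c had 0, 6 and 0 boxes and the 2 windows of Cacna1d had 5 and 0. Such a match describes letters only and is not evidence of binding.

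Cacna1i encodes CaV3.3, the T-type channel with the slowest kinetics. The 4 MACS-sorted samples, in the order of their replicate numbers as in all lists here, gave 4.51, 8.34, 6.21 and 9.87 FPKM for it, against 1.87, 2.3, 1.68 and 1.21 FPKM in the unsorted samples and 1.33, 1.70, 1.86 and 2.04 FPKM in the intact samples. Each MACS-sorted value was above each of the other 8, and the lowest MACS-sorted sample was at 4.51 FPKM against a highest unsorted value of 2.3. Relative to unsorted samples it rose by 1.95 on the log2 scale (standard error 0.259, adjusted p = 2.2e-04, limma). It stayed past the threshold in 20 of 20 alternative fits, with estimates from 1.54 to 2.15. Cacna1i transcripts came from an estimated 590 fragments in the MACS-sorted sample with the fewest.

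Cacna1h (chromosome 17, 25374287 to 25433783 in mm10, minus strand) encodes CaV3.2, the T-type channel with the highest level in these ganglia. It was measured at 6.12, 9.98, 9.01 and 12.1 FPKM in the MACS-sorted samples, at 7.58, 7.53, 8.16 and 5.95 FPKM in the unsorted samples and at 4.23, 7.26, 7.49 and 8.93 FPKM in the intact samples. MACS-sorted replicate 1 lay among the unsorted samples and the other 3 above them. The log2-fold change against unsorted samples was 0.31 (standard error 0.191, 95% confidence interval -0.12 to 0.74, adjusted p = 0.21, limma). Without MACS-sorted replicate 1 the estimate was 0.50 with an adjusted p of 0.018 in limma, and Cacna1h was then called, while without MACS-sorted replicate 4 the estimate was 0.17 (adjusted p = 0.44, limma). The ratio of Cacna1i to Cacna1h was 0.240 ± 0.0478 in unsorted, 0.256 ± 0.0397 in intact and 0.770 ± 0.0693 in MACS-sorted samples (SD, n = 4), where it ran from 0.689 to 0.836.

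Cacna1g (chromosome 11, 94408391 to 94474198 in mm10, minus strand), for CaV3.1, was low throughout. It had 0.656, 0.396, 0.489 and 0.487 FPKM in the intact samples, 0.333, 0.334, 0.172 and 0.264 FPKM in the unsorted samples and 0.110, 0.0949, 0.100 and 0.596 FPKM in the MACS-sorted samples. Its mean was under 1 FPKM and it was not tested. The intact values were all above the unsorted ones, and MACS-sorted replicate 4 stood above the other 3 MACS-sorted samples, which rested on an estimated 12 to 14 fragments each. That sample also had the highest summed level of Schwann cell markers in its group, at 1209 FPKM against 518.3 to 592.7, of fibroblast markers, at 32.53 against 7.619 to 14.04, and of smooth muscle and pericyte markers, at 124.5 against 55.88 to 90.65. It was likewise the highest for satellite glia, endothelial, macrophage, red blood cell and skeletal muscle markers, though not for neutrophil markers. The part of these cells in the Cacna1g value was not tested.

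Cacna1i is a known transcript of C-fibre low-threshold mechanoreceptors, small unmyelinated neurons of hairy skin, and the markers of low-threshold mechanoreceptors were therefore set beside it. Th, the rate-limiting enzyme of catecholamine synthesis that marks these cells, was at 89.7, 238, 119 and 205 FPKM in the MACS-sorted samples and from 26.1 to 42.6 FPKM in the unsorted samples. It rose by 2.08 on the log2 scale (standard error 0.298, adjusted p = 3.5e-04, limma), close in size to that of Cacna1i. Slc17a8, the vesicular glutamate transporter of the same cells, rose from a mean of 3.19 to 12.7 FPKM (adjusted p = 4.5e-05, limma), and Fam19a4, a secreted protein they make, from 20.6 to 63.1 FPKM (adjusted p = 0.001, limma). Other markers on this list moved the opposite way. Ntrk2, the receptor TrkB of myelinated low-threshold neurons that glia also express, fell from 37.6 to 3.37 FPKM, and Colq fell from 1.76 to 0.453 FPKM, while Necab2 was at 6.25 and 6.76 FPKM (adjusted p = 0.76, limma). Among the 6 markers 3 rose, 2 fell and 1 did not pass. Within the MACS-sorted group, replicate 1 had the lowest value and replicate 3 the next for Cacna1i, Cacna1h, Th, Slc17a8 and Fam19a4. Replicate 1 was also the lowest for Necab2 and Ntrk2, with replicate 2 next, and Colq was lowest in replicate 2. These orders of 4 samples were seen in the values and were not tested. The summed low-threshold markers ranged from 139.8 to 344.6 FPKM in MACS-sorted samples and from 86.53 to 118.1 FPKM in unsorted samples, and their part in the Cacna1i result was not tested.

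**Figure D2:**
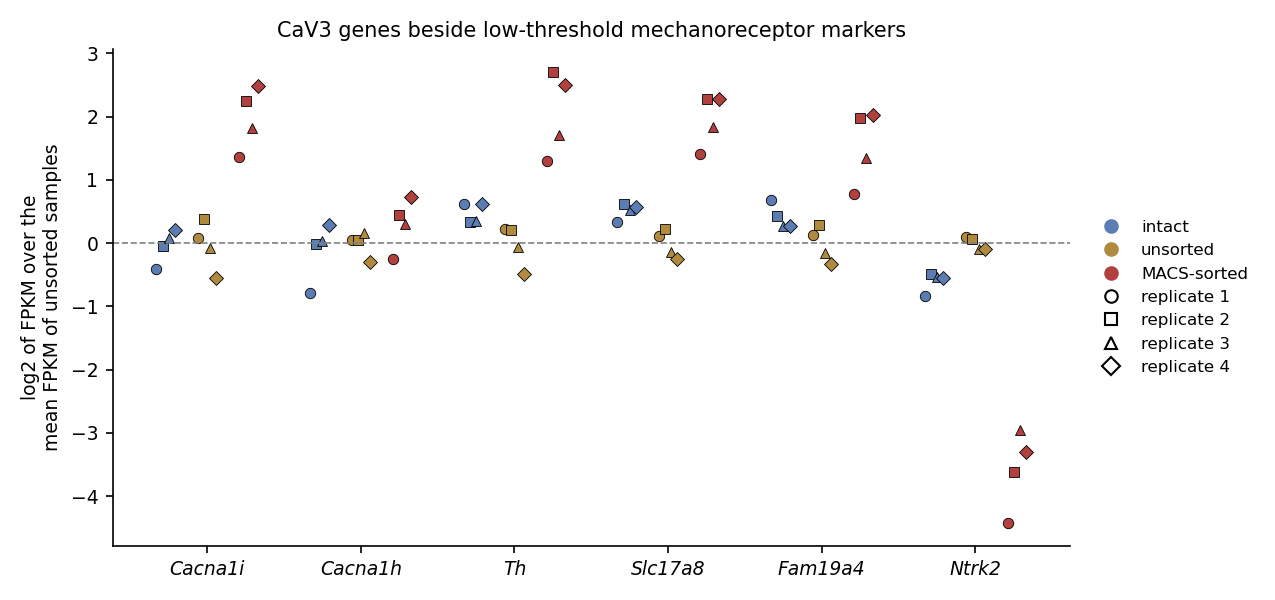
Log2 of the FPKM of each sample over the mean FPKM of the 4 unsorted samples (y axis) for Cacna1i, Cacna1h and 4 of the 6 markers of low-threshold mechanoreceptors, with 1 point per sample, colour for the group and symbol for the replicate. Colq, which fell, and Necab2, which did not pass, are not drawn. The MACS-sorted samples of Cacna1i, Th, Slc17a8 and Fam19a4 lie above every unsorted sample, those of Ntrk2 lie below, and those of Cacna1h overlap the unsorted samples.

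Cacna1b encodes CaV2.2, the N-type channel. It was measured at 28.7, 26.1, 28.2 and 20.6 FPKM after sorting, at 17.3, 17.2, 19.2 and 18.0 FPKM in the unsorted samples and at 12.5, 19.3, 18.7 and 19.2 FPKM in the intact samples. All MACS-sorted values were above all others, with replicate 4 nearest to them. Cacna1b rose by 0.52 relative to unsorted samples on the log2 scale (standard error 0.106, adjusted p = 0.0028, limma) and passed in 21 of 21 alternative fits. The log2 ratio of group means was 0.534, just over the 0.5 that a call asked for, and it was 0.482 without MACS-sorted replicate 1 and 0.49 without MACS-sorted replicate 3, so that the call was lost in both cases though the adjusted p was 0.0087 and 0.01 in limma. Scaling each sample to its pan-neuronal markers gave a log2 ratio of 0.391 (adjusted p = 0.01, limma), so that the call was lost there as well.

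Cacna1a (chromosome 8, 84415364 to 84640249 in mm10, plus strand) encodes CaV2.1, the P/Q-type channel. It was at 13.6, 12.1, 13.4 and 13.3 FPKM in the MACS-sorted samples, 14.4, 14.1, 17.9 and 15.4 FPKM in the unsorted samples and 7.19, 12.8, 13.4 and 12.9 FPKM in the intact samples. The MACS-sorted values lay below the unsorted ones without overlap, as 27.8% of the genes tested did, and the gap between the nearest values was small. The log2-fold change was -0.23 (standard error 0.0889, 95% confidence interval -0.43 to -0.03, adjusted p = 0.059, limma), which did not pass. With scaling to the pan-neuronal markers it was -0.37 and passed (adjusted p = 0.017, limma). Under that scaling 4485 of 11913 genes passed lower, and the median log2-fold change of all genes was -0.18. The ratio of Cacna1b to Cacna1a was 1.16 ± 0.0648 in unsorted, 1.53 ± 0.146 in intact and 1.98 ± 0.286 in MACS-sorted samples (SD, n = 4), and its MACS-sorted range of 1.55 to 2.16 did not overlap the unsorted range of 1.07 to 1.22. Of the exonic bases of Cacna1a 3.81% are shared with an antisense gene, and whether Cufflinks was set to use strand is not given in the sources used here.

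Cacna1e (chromosome 1, 154392519 to 154725920 in mm10, minus strand), which encodes the R-type channel CaV2.3, was at 1.32, 0.683, 1.16 and 0.752 FPKM in the MACS-sorted samples and between 1.16 and 1.46 FPKM in the unsorted and 0.953 and 1.88 FPKM in the intact samples, and the groups overlapped. The estimate against unsorted samples was -0.39 on the log2 scale (standard error 0.249, 95% confidence interval -0.95 to 0.17, adjusted p = 0.22, limma). Quantile normalisation turned the sign of the estimate, to 0.20 (adjusted p = 0.50, limma).

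Cacna1c (chromosome 6, 118587240 to 119196409 in mm10, minus strand) encodes CaV1.2, the L-type channel of neurons, heart and smooth muscle. It was at 14.2, 9.35, 11.9 and 8.22 FPKM in the MACS-sorted samples, 7.99, 7.47, 8.31 and 7.36 FPKM in the unsorted samples and 5.43, 8.78, 7.95 and 8.48 FPKM in the intact samples. MACS-sorted replicate 4 was within the unsorted range and replicate 1 was the highest, the reverse of the pattern of Cacna1i. The rise relative to unsorted samples was 0.45 on the log2 scale (standard error 0.156, adjusted p = 0.038, limma), and the log2 ratio of group means of 0.488 missed the 0.5 that a call asked for. The adjusted p stayed under 0.05 in 11 of 21 alternative fits and ran from 0.0064 to 0.12. It was lost without MACS-sorted replicate 1 (0.073) or 3 (0.094) and without unsorted replicate 1 (0.069), 2 (0.087), 3 (0.059) or 4 (0.089). With red blood cell genes removed or with quantile normalisation the log2 ratio was 0.536 and 0.597, and Cacna1c was called. Cacna1c is also expressed by smooth muscle, of whose markers, with those of pericytes, 4 of the 5 tested fell and Rgs5 rose in this comparison. The summed level of that list was 65.98 to 88.17 FPKM in unsorted and 55.88 to 124.5 FPKM in MACS-sorted samples, and its part in the Cacna1c result was not tested.

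Cacna1d (chromosome 14, 30039939 to 30491156 in mm10, minus strand), for the L-type channel CaV1.3, was between 0.778 and 1.1 FPKM in the MACS-sorted samples, between 1.04 and 1.21 FPKM in the unsorted samples and between 0.881 and 1.44 FPKM in the intact samples, with overlap throughout. The log2-fold change was -0.22 (standard error 0.203, 95% confidence interval -0.67 to 0.24, adjusted p = 0.41, limma), and quantile normalisation gave 0.38 (adjusted p = 0.13, limma). Cacna1c was 6.95-fold above Cacna1d in unsorted and 11.4-fold in MACS-sorted samples. Of the exonic bases of Cacna1d 4.67% are shared with Chdh on the opposite strand.

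The other alpha1 genes were not tested between MACS-sorted and unsorted samples, for their low level. Cacna1f, the retinal CaV1.4, was at most 0.0270 FPKM in any sample. Cacna1s, the CaV1.1 of skeletal muscle, was at 5.27 FPKM in intact replicate 1, from 0.0525 to 0.212 FPKM in the other intact samples and at most 0.101 FPKM after dissociation. The summed skeletal muscle markers in intact replicate 1 were 2759 FPKM, against 15.82 to 63.79 FPKM in the other intact samples.

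**Figure D3:**
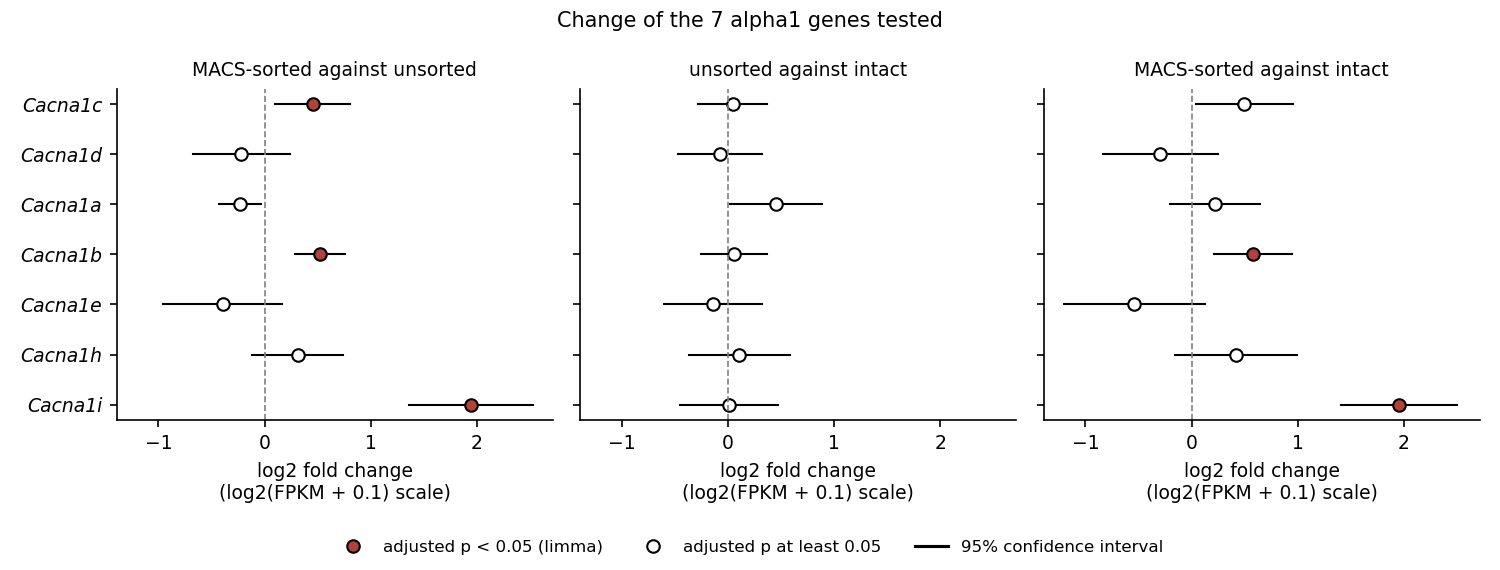
Log2-fold change on the log2(FPKM + 0.1) scale (x axis) with its 95% confidence interval for the 7 alpha1 genes tested in each of the 3 comparisons, filled where the adjusted p-value from limma was under 0.05. Cacna1i is near 1.95 in both comparisons that involve MACS-sorted samples and near 0 between unsorted and intact samples.

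The second comparison set dissociated, unsorted samples against intact ganglia. The number of mice pooled per sample differed between these groups as well, so that the effect of dissociation alone was not isolated. Between unsorted and intact samples, 0 of the 7 members tested passed in limma at an adjusted p under 0.05, with 1 (Cacna1a) at an unadjusted p under 0.05, where 14.8% of 12392 genes passed higher and 7.79% lower. No member was called, beside 4.29% of genes called higher and 2.76% called lower. The means of Cacna1i, Cacna1e and Cacna1d were under 5 FPKM in both groups, so that these genes could not be called whatever their change. For Cacna1e and Cacna1d this holds in every comparison. The log2-fold changes of the 7 members tested between unsorted and intact samples ran from -0.14 to 0.45. Their median was 0.05, beside 0.01 over all genes tested. Cacna1a had the largest, 0.45 (standard error 0.192, adjusted p = 0.12, limma), and its unsorted values were all above its intact values, as those of 20.8% of genes were, and 0 members tested lay wholly below, as 12% of genes did. Without intact replicate 1 the estimate for Cacna1a was 0.24 and passed (adjusted p = 0.049, limma). For Cacna1i the estimate was 0.01 with a 95% confidence interval of -0.46 to 0.47, and for Cacna1b 0.06 with an interval of -0.25 to 0.37. Of the 6 low-threshold mechanoreceptor markers, Ntrk2 rose in this comparison (adjusted p = 0.0046, limma), Th and Slc17a8 fell (adjusted p = 0.049 and 0.019, limma) and 3 did not pass. Cacna1g was too low to be tested. Intact replicate 1 held the lowest intact value of 7 members, at 0.535 to 0.712 times the mean of the other 3 samples, and the highest of Cacna1g, at 1.43 times.

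MACS-sorted samples were also set against intact DRG, a comparison that shares its samples with the other two and is not independent of them. Cacna1i was higher by 1.96 (standard error 0.243, adjusted p = 2.4e-04, limma) and Cacna1b by 0.58 (standard error 0.164, adjusted p = 0.022, limma) on the log2 scale. They were the 2 members called, beside 7.54% of 12234 genes called higher and 10.7% lower, and the 2 that passed, beside 14.1% of genes higher and 20.6% lower. The same 2 lay wholly above the intact samples, as 15.6% of genes did, and 0 members tested lay wholly below, as 21.9% did. The median over the 7 members tested was 0.42, against -0.04 over all genes. The adjusted p of Cacna1b was 0.062, 0.05 and 0.064 without MACS-sorted replicates 1, 2 and 3, each above the threshold before rounding. Without intact replicate 1 its log2 ratio of means was 0.444, under the limit for a call, and scaled to pan-neuronal markers it was 0.154 (adjusted p = 0.36, limma). Cacna1c was at 0.50 (standard error 0.204, adjusted p = 0.087, limma) and passed without MACS-sorted replicate 4 (0.62, adjusted p = 0.042, limma). The log2-fold changes were 0.42 for Cacna1h, 0.22 for Cacna1a, -0.29 for Cacna1d and -0.54 for Cacna1e, with adjusted p-values between 0.19 and 0.40 in limma. Scaling to pan-neuronal markers gave -0.68 for Cacna1d and -0.93 for Cacna1e, both past the threshold (adjusted p = 0.038 and 0.022, limma). Under that scaling 6583 of 12348 genes passed lower, and the median log2-fold change of all genes was -0.47. Quantile normalisation put Cacna1d and Cacna1e above 0 (adjusted p = 0.13 and 0.52, limma).

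As a share of the summed FPKM of the 8 alpha1 genes, Cacna1i took 3.35% ± 0.917 in unsorted, 3.61% ± 0.337 in intact and then 10.6% ± 3.73 in MACS-sorted samples (SD, n = 4). It ran from 6.48% to 14.9% in the MACS-sorted samples, above its share in each other sample. Cacna1a went the other way, from 29.2% ± 1.74 in unsorted to 19.1% ± 0.915 in MACS-sorted samples, with 23.6% ± 1.59 in intact samples (SD, n = 4), and the 3 groups did not overlap. A share also falls where the sum rises. The mean FPKM of Cacna1a was higher in MACS-sorted than in intact samples, at 13.1 against 11.6. In the main fits its FPKM passed against neither unsorted nor intact samples. The CaV2 genes together held 62.7% of the total in intact DRG, 65.5% in unsorted and 58.2% in sorted samples, and so most of the alpha1 transcripts in each. The CaV3 share was 17.7% in unsorted and 24.6% in MACS-sorted samples, where it ranged from 15.4% to 33.9%, and MACS-sorted replicate 1 lay within the unsorted range. The 8 genes summed to 48.5 ± 10.3 FPKM in intact DRG, to 52.9 ± 3.24 without sorting and to 68.7 ± 2.13 with it (SD, n = 4).

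**Figure D4:**
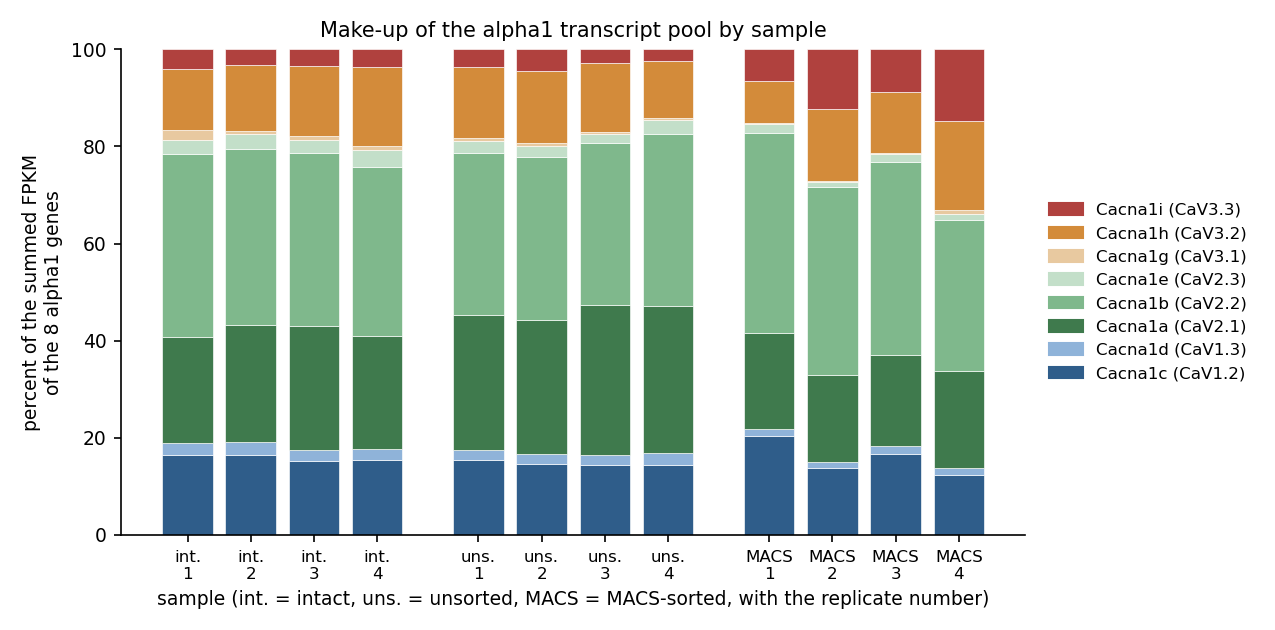
Share of each alpha1 gene in the summed FPKM of the 8 genes (y axis, percent) in each of the 12 samples, in blue for CaV1, green for CaV2 and orange to red for CaV3 genes. Cacna1i takes 6.48% to 14.9% of the MACS-sorted samples and at most 4.5% of the others, and Cacna1a is smaller in the MACS-sorted than in the unsorted samples.

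The alpha1 subunit works with auxiliary subunits that set its trafficking and gating. The alpha2delta subunits, of which Cacna2d1 is the target of gabapentin, raise the number of channels at the surface. Cacna2d1 rose from 35.9 to 53.3 FPKM between unsorted and MACS-sorted samples (log2-fold change 0.56, standard error 0.0973, adjusted p = 0.0011, limma) and Cacna2d2 from 7.03 to 11 FPKM (0.64, standard error 0.0781, adjusted p = 1.2e-04, limma). Cacna2d3 fell by 0.70, from 17.5 to 11 FPKM (adjusted p = 0.0081, limma), and Cacna2d4 was at most 0.0602 FPKM. Among the beta subunits, which bind the channel inside the cell, Cacnb3 was the most abundant and rose from 88.7 to 139 FPKM (0.64, standard error 0.0872, adjusted p = 2.4e-04, limma). Cacnb1 rose by 0.39 (adjusted p = 0.0034, limma), short of a call, and Cacnb4 was at 21.6 and 21.3 FPKM (adjusted p = 0.84, limma). Cacnb2 was under the limit for testing, at 1.13 FPKM in unsorted and 0.316 FPKM in MACS-sorted samples. In all, 2 alpha2delta genes and 2 beta genes of 3 tested on each list passed higher, beside 18.8% of all genes, and 1 alpha2delta gene lower, beside 27.7%. Against intact DRG, Cacna2d1, Cacna2d2, Cacnb1 and Cacnb3 also passed higher (adjusted p from 3.9e-04 to 0.017, limma), and Cacna2d3 was higher by 0.53 in unsorted than in intact samples (adjusted p = 0.041, limma).

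**Figure D5:**
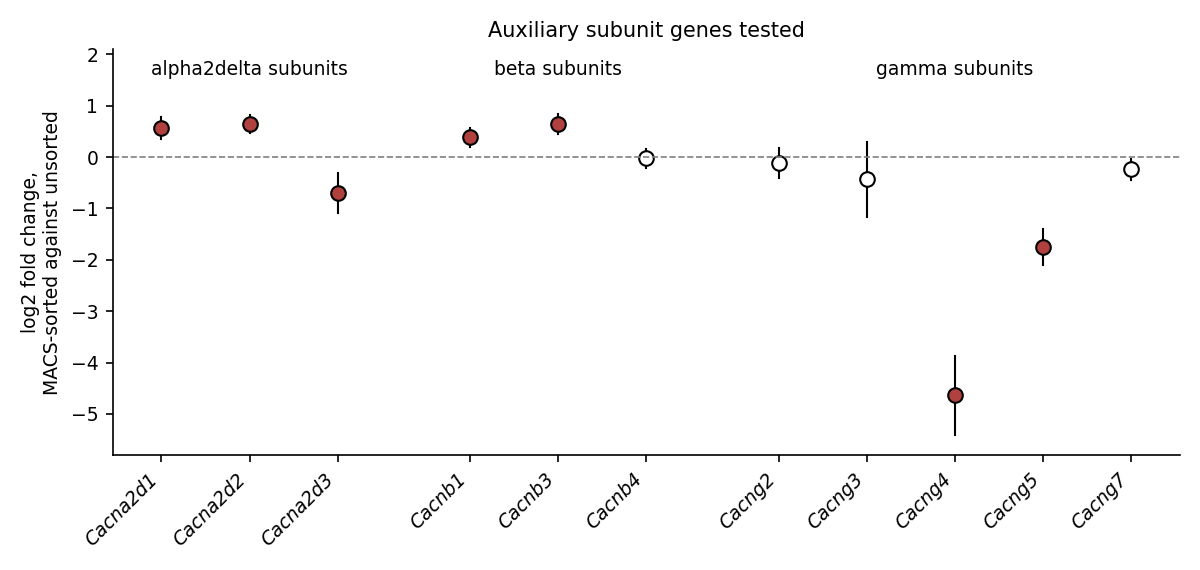
Log2-fold change of MACS-sorted over unsorted samples (y axis, log2(FPKM + 0.1) scale) with its 95% confidence interval for the auxiliary subunit genes tested, filled where the adjusted p-value from limma was under 0.05. Cacna2d1, Cacna2d2, Cacnb1 and Cacnb3 lie above 0, and Cacna2d3, Cacng4 and Cacng5 below.

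Of the gamma family, whose members regulate calcium channels or AMPA receptors, 2 of 5 genes tested fell and 0 rose between unsorted and MACS-sorted samples. Here and for the lists that follow, counts are of genes that passed, where 18.8% of all genes tested passed higher and 27.7% lower, and nothing is read from a list near these shares. Cacng4 fell from 3.3 to 0.0427 FPKM (adjusted p = 6.1e-06, limma) and Cacng5 from 7.31 to 2.11 FPKM (adjusted p = 1.9e-05, limma). Among 12 regulators and partners of the channels tested, 1 rose and 7 fell. The one that rose was Stac, an adaptor that binds L-type channels, from 23.3 to 45.4 FPKM (adjusted p = 4.7e-05, limma), and Rem2, a small GTPase that inhibits the channels, fell from 8.69 to 4.00 FPKM (adjusted p = 3.4e-05, limma). In the release machinery that CaV2 channels trigger, 7 of 18 transcripts tested rose and 7 fell, the 2 largest changes being the falls of the calcium sensor Syt2, from 65.0 to 5.93 FPKM, and of the vesicle protein Vamp1, from 239 to 57.5 FPKM.

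Among 18 genes of calcium stores, entry and clearance tested 1 rose and 7 fell, among them Itpr3, an intracellular release channel, from 11.9 to 0.756 FPKM and Ryr2, a ryanodine receptor, from 6.87 to 0.760 FPKM. Of 6 calcium-activated channels tested 2 rose and 2 fell. Those that fell were Ano1, a chloride channel, from 4.57 to 0.334 FPKM, and Kcnn4, a potassium channel, from 6.43 to 2.81 FPKM. Among 13 genes of calcium-dependent signalling tested 5 rose and 4 fell. Camk2a, a calmodulin-dependent kinase, rose from 37.6 to 79.2 FPKM, and its paralogue Camk2g fell from 103 to 52.3 FPKM. The rises and falls of the genes named from the gamma, regulator, release, store, calcium-activated and signalling lists had adjusted p-values between 3.6e-07 and 0.0075 in limma. In unsorted against intact samples, 4 of 5 gamma genes, 8 of 13 regulators and 7 of 17 store genes tested passed higher. On these lists 0 passed lower, where 14.8% of all genes passed higher and 7.79% lower. In MACS-sorted against intact samples, 1 of 3 gamma genes passed higher and 1 lower. Of 12 regulators 2 passed higher and 3 lower, and of 19 store genes 3 and 4, beside 14.1% and 20.6% of all genes.

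The genes whose log2(FPKM + 0.1) values followed a member most closely over the 12 samples were taken among 12282 genes whose mean reached 1 FPKM, as a description of samples that share groups and libraries. For Cacna1i they were Dgkk, Kcnd3 and Myo1a (Pearson's r 0.984, 0.982 and 0.981, n = 12 samples). For Cacna1b they were Pde11a, Chd3 and Mink1 (0.983, 0.982 and 0.975), for Cacna1a Dst, Plec and Vps13d (0.981, 0.981 and 0.979) and for Cacna1c BC068157, Nwd2 and Ift88 (0.972, 0.957 and 0.956). Cacna1h was followed less closely, with Efr3b at 0.931 and Kirrel3 at 0.913. Rnmt came first for both Cacna1d (0.953) and Cacna1e (0.905), ahead of Btbd7 and Apc and of Mpp5 and A830082N09Rik. Between members the highest values were 0.941 for Cacna1b with Cacna1c and 0.867 for Cacna1d with Cacna1e, and the lowest was -0.65 for Cacna1e with Cacna1i.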

How the data were processed

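Poly(A) RNA of 4 intact, 4 unsorted and 4 MACS-sorted DRG samples was sequenced with a directional kit. Per the submitters' processing notes and the paper's methods, the authors aligned reads to mm10 with TopHat2, merged lanes with SAMtools and computed FPKM with Cufflinks 2.1.1. The deposited table lists FPKM in each sample for 24490 genes. The authors used CuffDiff, which needs reads, and removed blood genes before later steps. Here limma 3.58.1 on R 4.3.3 replaced CuffDiff and no gene was removed except in an alternative. Each fit used the 8 samples of its comparison, on log2(FPKM + 0.1) with an intensity trend, over genes whose mean reached 1 FPKM, and 4 replicates per group gave the error.

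Calls followed the study's criteria, an adjusted p-value under 0.05 with group means over 0.5 apart on the log2 scale and the higher above 5 FPKM. The members and all gene lists were chosen with earlier results of these data known, so nothing was adjusted over a list alone. Named genes were the 8 members, Cacna1f, Cacna1s, all alpha2delta and beta genes, up to 2 genes with the largest change and no overlap from each other pathway list, the 3 genes most like each member (1 of them is not reported here), and markers given beside a result. Rgs5, outside the largest changes, was named after its values were seen. Depth is not part of FPKM and was estimated from the steps between the lowest values of 6055 genes with 1 transcript, with fragments of 150 bases assumed, and fragment numbers per gene are estimates from it. The labels give the mice in each sample but not whether dissociations were separate, so p-values measure the spread between these samples, which may be partly technical. Nothing in the labels says that samples of one number belong together. Same-numbered samples did not deviate together (correlations from -0.143 to 0.067 over 12 pairs). Unsorted replicates 1 and 2 were the closest pair within any group, with a difference of 1.39 times the counting noise. Every remaining pair of replicates had a ratio between 3.16 and 58.48. The close pair was kept as 2 samples, since its difference exceeded that noise, and was averaged in an alternative. The noise rests on the estimated depth, so this excess does not show that the 2 samples were independent. The fit was tested on simulated data. Alternatives varied the pseudocount, filter, scaling, samples, block and call rule. Sequences came from RefSeq windows on GRCm38.p6. Windows for Cacna1a, Cacna1g and Cacna1h were not used here.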

Additional observations from a re-analysis of the deposited data

Results flagged for a closer look

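Samples far from the other 3 of their group were looked for among 30 named genes in 3 groups of 4. The gap to the nearest sample over the range of the group exceeded Dixon's 95% critical value in 8 cases, where chance gives about 1 in 20 of those tested. Cases with very low values throughout, among them Cacna1f in each group, were skipped, so that fewer than 90 cases were tested. Intact replicate 1 was the distant sample in 4 of the 8. Intact replicate 1 was low for Cacna1b, at 12.5 FPKM against 18.7 to 19.3 FPKM, for Cacna1a, at 7.19 against 12.8 to 13.4 FPKM, and for Cacng5, at 2.61 against 3.6 to 3.8 FPKM, and it was high for Cacna1s, at 5.27 against 0.0525 to 0.212 FPKM. MACS-sorted replicate 4 was high for Cacna1g, at 0.596 against 0.0949 to 0.110 FPKM. MACS-sorted replicate 1 was high for Cacna2d2, at 12.2 against 10.5 to 10.7 FPKM. Unsorted replicate 3 was high for Cacnb1, at 16.6 against 14.2 to 14.4 FPKM, and low for Cacna2d1, at 31.0 against 37.1 to 37.8 FPKM.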

How the results depend on the processing

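No log2-fold change that passed changed its sign in any of its alternatives, and 21 of 420 alternative values of the members did so without passing, as did 46 of 1511 over all named genes. Members called higher between MACS-sorted and unsorted samples were 2, and 1 with a mean of at least 5 FPKM, which leaves Cacna1i untested, with a log2 ratio beyond 1, and with scaling to pan-neuronal genes, and from 1 to 3 with a replicate left out. Against intact samples they were 2, and 1 under the same 3 settings and from 1 to 3 with a replicate left out. Over all genes, adjusted p alone gave 2261 higher and 3331 lower for MACS-sorted against unsorted, 1828 and 965 for unsorted against intact and 1728 and 2524 for MACS-sorted against intact samples, where the calls were 981 and 1505, 531 and 342, and 922 and 1313. A ratio beyond 1 gave 260 and 879, 42 and 123, and 186 and 825. A limit of 1 FPKM in the higher group raised the lower calls to 2352, 665 and 2206. Scaling to pan-neuronal genes, chosen after seeing the data, gave 588 higher and 1953 lower in the first comparison, 104 higher and 1560 lower in the second and 195 higher and 3757 lower in the third, and moved the median log2-fold change of all genes to -0.18, -0.27 and -0.47. Quantile normalisation moved that median to 0.10, 0.03 and 0.13 and gave 1382 higher and 1285 lower, 421 and 408, and 1248 and 1183, with 3 members called higher in the first and the third. Removal of red blood cell genes gave 1141 and 1384 in the first, with 3 members called, and 343 and 431 in the second. With 1 replicate left out, the lower calls between unsorted and intact samples ranged from 187 to 334. The causes of these shifts were not tested. The replicate block gave 991 higher and 1516 lower, 541 and 358, and 915 and 1314, with 2, 0 and 2 members called and Cacna1h past the threshold against intact samples (adjusted p = 0.035, limma), and 1 of 12 samples correlated best with its own number. Depth limits Cacna1g most.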
